A study of Mus musculus with 6 samples.

Results

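The genes described here encode secreted matrix proteins: the 5 thrombospondins (Thbs1, Thbs2, Thbs3, Thbs4 and Comp, the cartilage oligomeric matrix protein), the adhesive glycoproteins fibronectin (Fn1), vitronectin (Vtn) and osteopontin (Spp1), and extracellular matrix protein 1 (Ecm1). A gene was represented by a probe set that the platform annotation assigns to that symbol alone, chosen by the highest mean over the 6 arrays where several qualified. Of the 9 genes listed, 8 were found among the 19938 genes of the array, each with 1 probe set, and Spp1 was not analysed here. The measured value that could select a probe set was thus the mean level and not the difference between the groups, but the genes were proposed with results of these arrays known, so the comparisons below describe these 6 mice and are not independent support for a difference.

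Each of the 6 Affymetrix mouse gene arrays held RNA from the bone marrow cells of 1 diseased mouse. All recipients were lethally irradiated CD45.1+ mice that received CD45.2+ LSK cells, the marrow fraction rich in haematopoietic stem and progenitor cells. In every mouse the donor cells had been transduced with the homeobox gene Meis1. They also carried HoxA9 with GFP, in 3 mice as the wild type (HoxA9wt/Meis1) and in 3 mice as the altered form named HoxA9AA (HoxA9AA/Meis1), and marrow was taken at the onset of disease. No mouse without an introduced HoxA9 was included, no sort of the marrow for donor cells is described, and the labels name no strain, age or nature of the AA change. The marrow can therefore hold recipient cells beside donor cells, and in such bulk RNA fewer cells of a type and less RNA per cell cannot be told apart.

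Thrombospondins are secreted multimers that bind calcium, other matrix proteins and cell surface receptors. Thbs1 and Thbs2 form trimers and carry the type 1 repeats that bind the receptor CD36, whereas Thbs3, Thbs4 and Comp form pentamers and lack those repeats. Thbs1 is stored in platelet granules, is also made by monocytes and macrophages, binds CD47 and can activate latent TGF-beta. Fibronectin, vitronectin and osteopontin carry the RGD motif recognised by integrins; in marrow, fibronectin is made by stromal cells and by monocytes and macrophages and supports the adhesion of haematopoietic progenitors.

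Levels are log2 values, so that 1 unit stands for a factor of 2. A value was called above background where it exceeded the 95th percentile of 1027 olfactory receptor genes on the same array, a limit between 6.52 and 6.72. By this limit Thbs1, Thbs3, Fn1 and Ecm1 were above background on all 6 arrays, Comp on 2 and Thbs4 on 1, while Thbs2 and Vtn were above it on none. Over all genes HoxA9AA replicate 2 correlated with the HoxA9wt arrays at r = 0.989 to 0.991, whereas HoxA9AA replicates 1 and 3 did so at 0.958 to 0.970 (a description over genes, which are no replicates).

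The question was how the altered HoxA9 compares with the wild type in the expression of these genes once disease has set in. Thbs1 was lower in each HoxA9AA mouse than in any HoxA9wt mouse, Fn1 was far lower in 2 of the 3 HoxA9AA mice, Thbs4 was high in 1 HoxA9AA mouse and Ecm1 in 1 HoxA9wt mouse. Thbs2, Thbs3, Comp and Vtn stayed within a range of 0.64 or less over the 6 arrays. None of the 8 genes passed the test (limma, Benjamini-Hochberg adjusted over 19938 genes), and 0 of all 19938 genes did (0% called), with a smallest adjusted p of 0.731. At an unadjusted p under 0.05 the fit held 1344 genes, or 6.74% of all genes (4.15% higher and 2.59% lower in HoxA9AA/Meis1). Of the 8 genes it held 2, Thbs1 and Fn1, both lower. The groups did not overlap for 2 of the 8 genes, with Thbs1 lower and Thbs4 higher in HoxA9AA/Meis1. Over all genes this held for 11.4%, with 4.8% lower and 6.6% higher in HoxA9AA/Meis1. The median difference (HoxA9AA/Meis1 minus HoxA9wt/Meis1, as throughout) was −0.07 over the 8 genes and 0.01 over all genes.

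**Figure D1:**
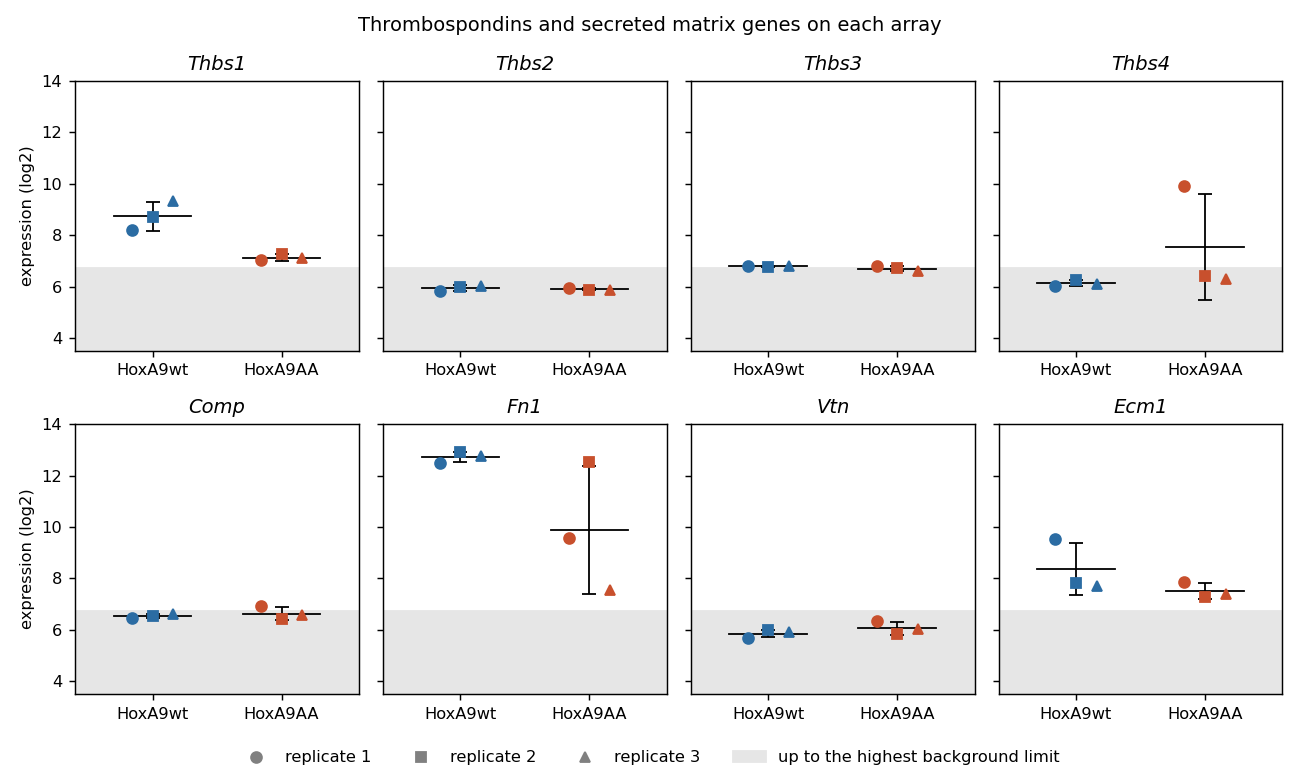
Expression values (log2, vertical axis) of the 8 measured genes by array; each symbol is 1 mouse, horizontal lines the group mean and bars the SD (n = 3), and the grey area ends at the highest background limit of the arrays, 6.72. The 3 HoxA9AA mice lie together between 7.02 and 7.26 for Thbs1, whereas Fn1 spreads from 7.54 to 12.53 among them and Thbs4 stands out in HoxA9AA replicate 1 alone, at 9.92.

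Thbs1 measured 8.19, 8.69 and 9.32 in HoxA9wt replicates 1, 2 and 3 and 7.02, 7.26 and 7.10 in HoxA9AA replicates 1, 2 and 3. All 3 HoxA9AA mice lay below all 3 HoxA9wt mice, with a gap of 0.93 between the nearest mice, and they differed from each other by less than the HoxA9wt mice did. The means were 8.73 ± 0.57 (SD, n = 3) and 7.13 ± 0.12, a difference of −1.61 ± 0.27 (SE; 95% confidence interval −2.26 to −0.95), or a 3.05-fold lower level. With limma the adjusted p was 0.731, so that the difference did not pass. The HoxA9AA values stood 0.30, 0.72 and 0.58 above the background limits of their arrays, which leaves the lower group near the floor of the measurement. Without any one mouse the difference lay between −1.88 and −1.31.

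Thbs1 lies on chromosome 2, in a stretch of that chromosome over which HoxA9AA replicate 1 was low. Only genes whose HoxA9wt mean reached 8 were used to find such runs, and values are given relative to the HoxA9wt mean. The run that stood out most in this mouse held 264 genes, and the 263 apart from Thbs1 had a median of −0.85. The run was picked by these same values, so a median away from 0 follows in part from its selection. A filter on the HoxA9wt mean can also lower differences from that mean. The 175 genes of chromosome 2 outside the stretch that passed the same filter had a median of −0.077 in this mouse. The run that stood out most in HoxA9AA replicate 3 lay on chromosome 2 too (42 genes, median −0.32) but did not hold Thbs1. That of HoxA9AA replicate 2 lay on chromosome 6 and was higher (297 genes, median 0.12). The search returns a run for every array. In HoxA9wt replicates 1, 2 and 3, each set against the other HoxA9wt arrays, it gave runs of 20 genes on chromosome 6 with medians of 0.33, −0.28 and −0.23. The 20 genes of that level on each side of Thbs1 had a median of −0.975 in HoxA9AA replicate 1, where 38 of the 40 were below the HoxA9wt mean. In replicates 2 and 3 the same 40 genes had medians of −0.012 and 0.122. The 20 measured genes on each side irrespective of level had a median of −0.07 in replicate 1, with 24 of 40 lower, and all 1077 other measured genes of the stretch a median of −0.04. Only 263 of these 1077 genes reached a HoxA9wt mean of 8, and genes near background have little room to be lower. Thbs1 itself lay at −1.71, −1.47 and −1.63 in HoxA9AA replicates 1, 2 and 3. Of the 40 neighbours, 3 lay as low as Thbs1 in replicate 1 and 0 in replicates 2 and 3. Without HoxA9AA replicate 1 the difference of Thbs1 was −1.55 ± 0.32 (limma, adjusted p = 0.697), against −1.61 with it. The part of the stretch in the value of replicate 1 was not tested.

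**Figure D2:**
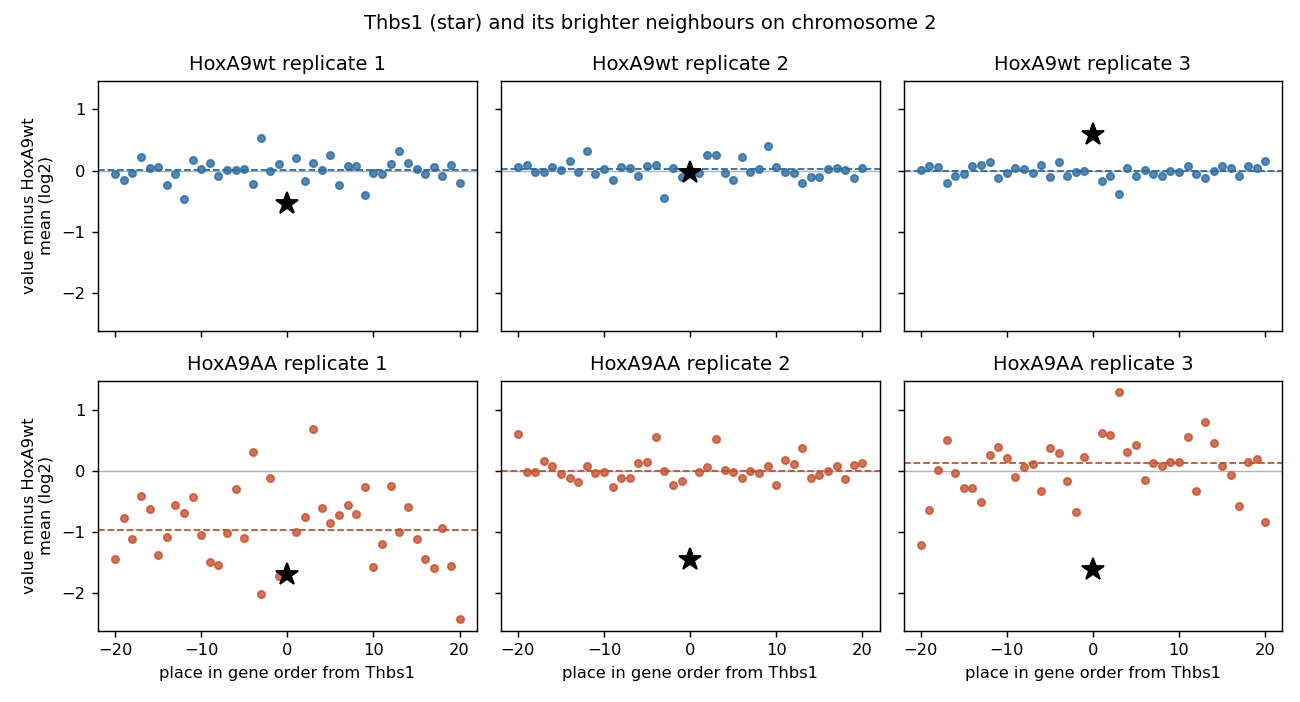
Value minus the HoxA9wt mean (log2, vertical axis) of Thbs1 (star) and of the 20 genes on each side whose HoxA9wt mean reached 8, placed by gene order on chromosome 2 (horizontal axis), for each of the 6 arrays; dashed lines are the medians of the 40 neighbours. The neighbours are low in HoxA9AA replicate 1 (median −0.975) and near 0 in replicates 2 and 3, while the star lies at −1.71, −1.47 and −1.63.

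Among the 2239 named genes that ranged over 1 or more and rose above background on an array, the 3 with the pattern most like Thbs1 over the 6 arrays were Strip2 (Pearson r = 0.991), Klhl6 (0.933) and Abca6 (0.930). With 6 points from 2 groups such coefficients are a description only. Strip2 measured 7.08, 7.61 and 8.38 in the HoxA9wt mice and 6.05, 6.50 and 6.04 in the HoxA9AA mice. Its HoxA9AA values were below the background limits of their arrays, and its likeness to Thbs1 follows from its selection.

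The closest relative of Thbs1, Thbs2, was not above background, with HoxA9wt values of 5.81 to 6.02 and HoxA9AA values of 5.87 to 5.93 (difference −0.05 ± 0.09, limma, adjusted p = 0.965). Both groups were thus at the floor of the measurement, and no fold is given.

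Of the pentameric thrombospondins, Thbs4, which is best known from muscle, tendon and nerve, measured 6.01, 6.26 and 6.11 in HoxA9wt replicates 1, 2 and 3 and 9.92, 6.41 and 6.29 in HoxA9AA replicates 1, 2 and 3. HoxA9AA replicate 1 stood 3.51 above the next array, and the other 5 arrays were below their background limits. That the groups did not overlap rests on 6.29 against 6.26, both below background. The difference of 1.41 ± 0.94 (95% confidence interval −0.84 to 3.67; limma, adjusted p = 0.816) came down to 0.22 without HoxA9AA replicate 1. An array that exceeded all 5 others by at least 1.5 was seen for 49 genes, or 0.246%, with HoxA9AA replicate 1 on top, and for 4 to 20 genes with any of the other 5 arrays. The patterns most like Thbs4 were those of Rhobtb3 (r = 0.9996), Prss48 (0.9988) and Sytl2 (0.996), coefficients that rest on the 1 high array. Sytl2, which encodes a Rab27-binding protein of vesicle transport, measured 7.61 in HoxA9AA replicate 1 and 5.19 to 5.46 in the other 5 mice.

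Thbs3 measured 6.77 to 6.81 in the HoxA9wt mice and 6.79, 6.71 and 6.60 in HoxA9AA replicates 1, 2 and 3, only 0.07 to 0.26 above the background limits of the arrays (difference −0.09 ± 0.09; limma, adjusted p = 0.898). Comp, a cartilage protein, measured 6.47 to 6.61 in the HoxA9wt mice and 6.92, 6.41 and 6.56 in HoxA9AA replicates 1, 2 and 3 (difference 0.09 ± 0.14; limma, adjusted p = 0.946). Its highest value again belonged to HoxA9AA replicate 1, 0.31 above the next array, and without that mouse the sign of the difference turned, to −0.055. The 95% confidence intervals of Thbs3 (−0.29 to 0.12) and Comp (−0.26 to 0.44) are those of the measured values. So near background the scale is compressed, and they do not bound the change in RNA.

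Fn1 was the gene of the 8 with the widest spread. It measured 12.49, 12.90 and 12.77 in HoxA9wt replicates 1, 2 and 3 and 9.58, 12.53 and 7.54 in HoxA9AA replicates 1, 2 and 3. HoxA9AA replicate 2 lay within the HoxA9wt range, 0.04 above the lowest HoxA9wt mouse, while replicates 1 and 3 lay at −3.14 and −5.18 relative to the HoxA9wt mean. The group means were 12.72 ± 0.21 and 9.88 ± 2.51 (SD, n = 3), a difference of −2.84 ± 1.14 (95% confidence interval −5.58 to −0.09). The SD among the HoxA9AA mice exceeded that of 99.97% of all genes. With limma Fn1 had an adjusted p of 0.731. The difference was −1.67 without HoxA9AA replicate 3 and −4.16 without HoxA9AA replicate 2 (limma, adjusted p = 0.0743). The array does not separate the splice forms of fibronectin, and even the lowest value, in HoxA9AA replicate 3, was above the limit of 6.52 on that array.

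**Figure D3:**
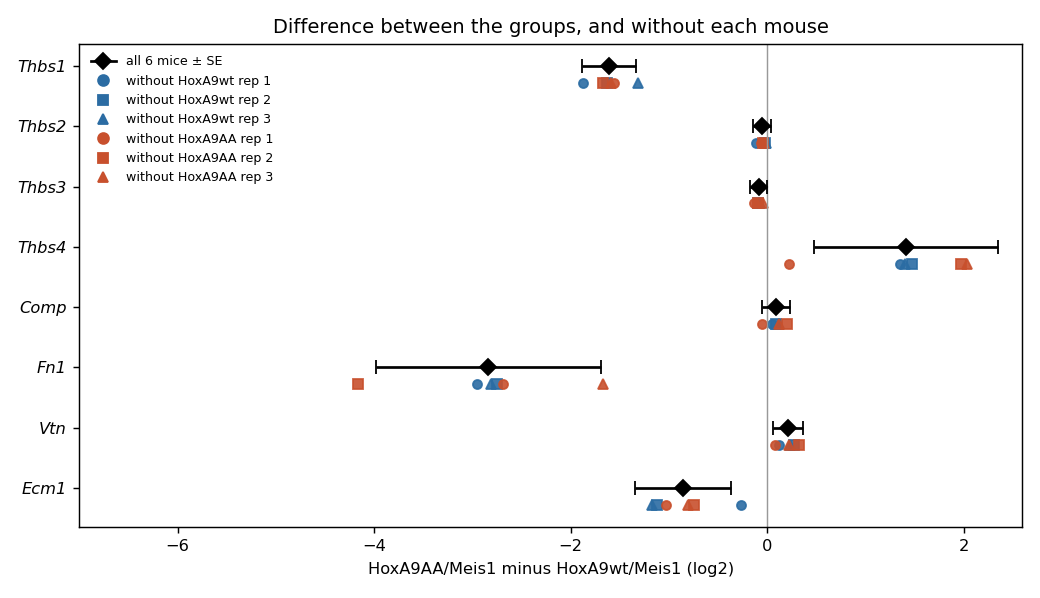
Difference of each gene (HoxA9AA/Meis1 minus HoxA9wt/Meis1, log2, horizontal axis) with its SE over all 6 mice (black) and the difference after leaving out each mouse in turn (coloured symbols under it). Thbs1 keeps between −1.88 and −1.31 without any one mouse, Fn1 moves from −4.16 to −1.67, and Thbs4 stands at 0.22 without HoxA9AA replicate 1.

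The genes most like Fn1 over the 6 arrays were Evi5 (r = 0.9988), Mmp8 (0.9961) and Klra2 (0.9958). Mmp8, the neutrophil collagenase, measured 8.07, 11.44 and 6.07 in HoxA9AA replicates 1, 2 and 3 against 11.70 to 12.49 in the HoxA9wt mice, and Klra2, a lectin-like receptor, 7.60, 10.55 and 5.56 against 10.82 to 11.06. In all these genes HoxA9AA replicate 3 was the lowest array and replicate 2 the HoxA9AA array nearest to the HoxA9wt mice. This shared order follows from their selection by likeness to Fn1.

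Monocyte and progenitor markers are given beside Fn1, as cells of the marrow that could hold or lack its RNA. All 10 measured genes of a list of 12 monocyte markers had a lower mean in HoxA9AA/Meis1 marrow, as 46.4% of all genes did. Of them 2, or 20%, had an unadjusted p under 0.05, against 6.74% of all genes in either direction and 2.59% lower. Their median difference was −0.61. The mean level of the list was 10.02 to 10.40 in the HoxA9wt mice, and 9.20, 10.23 and 9.46 in HoxA9AA replicates 1, 2 and 3, each of the 10 genes being above background on some array. Among them Csf1r, the receptor for macrophage colony-stimulating factor, measured 9.58 to 10.31 in the HoxA9wt mice and 8.81, 10.19 and 9.28 in HoxA9AA replicates 1, 2 and 3. Ctss, a lysosomal protease, measured 12.32 to 12.52 and then 10.62, 12.24 and 11.35. Klf4, a transcription factor of monocytes, the chemokine receptor gene Ccr2 and the lysozyme gene Lyz2 differed by −0.43, −1.03 and −0.64 (limma, adjusted p = 0.731, 0.734 and 0.746). The list was lowest in HoxA9AA replicate 1, Fn1 in replicate 3. The 10 progenitor markers stood at a mean level of 9.71 to 10.03 in the HoxA9wt mice and 10.41, 9.94 and 10.45 in HoxA9AA replicates 1, 2 and 3. Of them 8 had a higher mean, as 10507 of all 19938 genes did. Kit, the stem cell factor receptor, measured 7.54 to 8.63 in the HoxA9wt mice and 9.96, 8.43 and 10.49 in HoxA9AA replicates 1, 2 and 3. Myb, Prtn3, Ctsg and Mpo, of immature myeloid cells, differed by 0.49, 0.52, 0.08 and 0.30. Flt3 and Meis1, the 2 with a lower mean, differed by −0.96 and −0.08. Flt3 measured 9.87 to 10.69 in the HoxA9wt mice and 6.92, 10.13 and 10.85 in HoxA9AA replicates 1, 2 and 3. The part of monocyte or progenitor content in the Fn1 and Thbs1 values was not tested.

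Megakaryocyte and platelet markers, of interest for Thbs1, stood at a mean level of 6.93 to 7.44 in HoxA9wt/Meis1 and 7.06 to 7.12 in HoxA9AA/Meis1 marrow. Of 16 listed genes 11 were measured, 5 with a higher and 5 with a lower mean and a median difference of 0. Nbeal2 and F2rl2 were higher in each HoxA9AA mouse than in any HoxA9wt mouse, by 0.54 and 0.55 on average (limma, adjusted p = 0.731 for both). These 2 of 11 genes with separate groups are 18.2%, against 11.4% of all genes (6.6% higher). Pf4, platelet factor 4, was above background in HoxA9wt replicates 1 and 2 only, at 6.61 and 7.35, and Ppbp, a platelet chemokine, measured 10.42 in HoxA9wt replicate 2 and 7.52 to 8.69 elsewhere. The part of platelet and megakaryocyte content in the Thbs1 values was not tested. Of the stromal and osteoblast markers, 10 of 12 were measured, 5 higher and 5 lower, with a mean level of 6.76 to 6.91 in the HoxA9wt and 6.85 to 7.04 in the HoxA9AA mice. Col1a1 and Col1a2, collagen genes of stroma and bone, differed by −0.03 and 0.01, and the growth factor and hormone receptor genes Pdgfrb, Pdgfra and Lepr by 1.09, −0.12 and 0.22. Pdgfrb measured 6.56 to 6.91 in the HoxA9wt mice and 8.71, 6.69 and 8.15 in HoxA9AA replicates 1, 2 and 3. Pdgfra was above background on 1 array and Lepr on none.

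Of the other marker lists, 9 of 12 neutrophil, 6 of 10 endothelial and 4 of 12 macrophage genes had a higher mean in HoxA9AA/Meis1 marrow, as 10507 of all 19938 genes did. All 11 measured erythroid genes had a lower one, as 46.4% of all genes did. No gene of any marker list passed the test adjusted over all genes. Of neutrophil genes beside Mmp8, Mmp9, Ly6g, Ngp and S100a8 differed by 0.84, 1.57, 1.29 and 1.10. Ltf and Cd177, which like Mmp8 had a lower mean, differed by −0.24 and −0.003. The mean level of the neutrophil list was 9.9, 10.4 and 7.8 in HoxA9wt replicates 1, 2 and 3. It was 10.3, 10.7 and 8.9 in HoxA9AA replicates 1, 2 and 3. Ngp measured 12.02, 12.34 and 8.25 in HoxA9wt replicates 1, 2 and 3 and 11.69 to 12.42 in the HoxA9AA mice. The platelet and endothelial adhesion gene Pecam1 differed by 1.19, and Tek, Esam and Stab2 by −0.13, −0.11 and 0.12. Of macrophage genes Mertk, a receptor for apoptotic cells that lies in the stretch of chromosome 2, differed by −2.56, the adhesion molecule gene Vcam1 by 1.28 and Adgre1 by −0.58. The erythroid genes Car1, Rhag, Epb42, Tfrc and Slc4a1 differed by −1.82, −1.19, −0.29, −0.52 and −0.32. The erythroid list was highest in HoxA9wt replicate 2, at a mean of 7.88 against 6.61 and 6.86 in HoxA9wt replicates 1 and 3. In the HoxA9AA mice it stood at 6.51 to 6.60. Car1 measured 6.68, 10.27 and 7.53 in HoxA9wt replicates 1, 2 and 3 and 6.04 to 6.64 in the HoxA9AA mice. Rhag was above background in HoxA9wt replicate 2 only, at 7.56. Epb42, Tek and Esam were above background on no array.

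**Figure D4:**
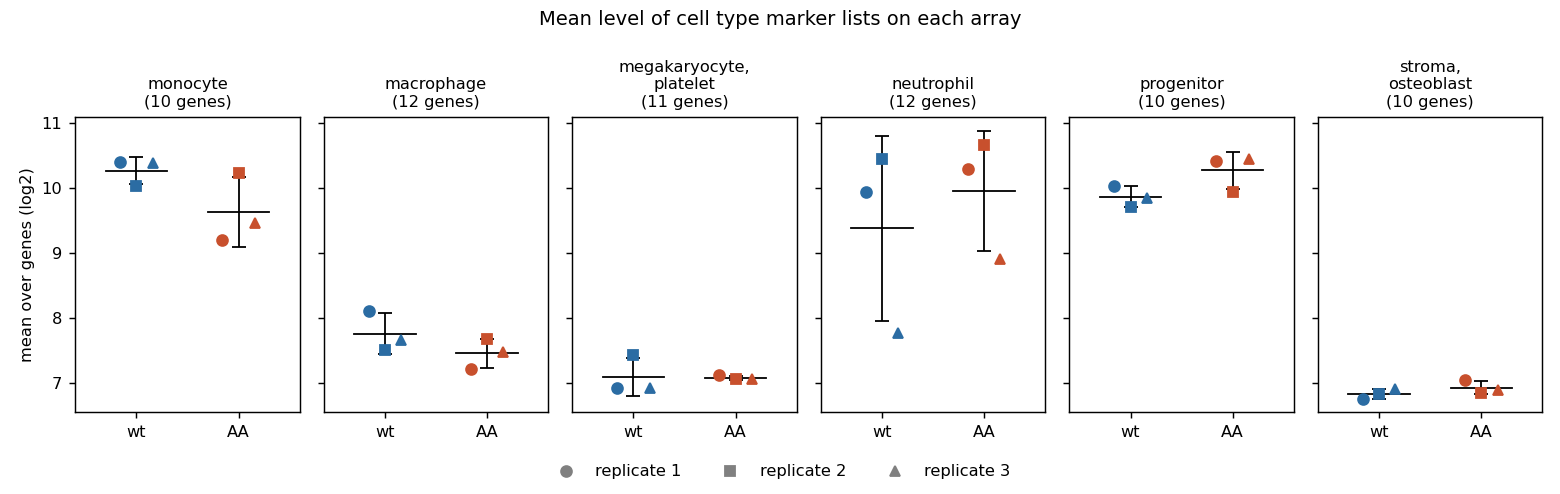
Mean over the measured genes of 6 cell type marker lists (log2, vertical axis) by array; each symbol is 1 mouse, horizontal lines the group mean and bars the SD (n = 3). HoxA9AA replicates 1 and 3 are low for the monocyte list, at 9.20 and 9.46, while the megakaryocyte list lies between 7.06 and 7.12 in all 3 HoxA9AA mice.

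Vtn, a plasma protein made mostly by liver, was below background on all 6 arrays, at 5.68 to 5.97 in the HoxA9wt mice and 6.32, 5.82 and 6.04 in HoxA9AA replicates 1, 2 and 3 (difference 0.21 ± 0.15; limma, adjusted p = 0.832). Of 7 measured hepatocyte markers 5 were above background on no array, among them Alb, the albumin gene, at 5.08 to 5.24. The plasma protein genes Fgb, Ahsg, Apoa1 and Apoa2 and the enzyme gene Cyp2e1 differed by 0.18, 0.08, −0.04, −0.02 and 0.17.

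Ecm1, a secreted glycoprotein that binds other matrix components such as fibronectin and perlecan, measured 9.53, 7.82 and 7.72 in HoxA9wt replicates 1, 2 and 3 and 7.84, 7.27 and 7.39 in HoxA9AA replicates 1, 2 and 3. HoxA9wt replicate 1 stood 1.69 above the next array, which was HoxA9AA replicate 1, so that the groups overlapped. The difference of −0.86 ± 0.49 (95% confidence interval −2.02 to 0.31; limma, adjusted p = 0.782) shrank to −0.27 without HoxA9wt replicate 1. The genes most like Ecm1 were Itga8, an integrin chain that pairs with beta 1 to bind fibronectin, vitronectin and osteopontin (r = 0.989), the membrane protease gene Adam8 (0.968) and Plin2, which coats lipid droplets (0.966). Itga8 measured 7.92 in HoxA9wt replicate 1 and 5.87 to 6.31 in the other 5 mice. The macrophage marker list was highest in the same mouse, at a mean of 8.12 against 7.50 and 7.67 in HoxA9wt replicates 2 and 3 and 7.22 to 7.67 in the HoxA9AA mice. The part of macrophage content in the Ecm1 value was not tested.

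Since Thbs4 and Ecm1 each stood out in 1 mouse, the 250 bases before their starts are shown, as given by RefSeq on GRCm38.p6. Of the 9 listed genes 6 have an entry in the table used here, and Thbs1, Comp and Fn1 do not. Capitals mark matches, on either strand, to the letters TGACAG (the core of Meis sites), TGATTTA (a Pbx-Hox9 motif), TGAGTCA (an AP-1 site) and TATAAA (the TATA box); no matches overlap in either sequence. The Thbs4 window is chr13:92794819-92795068 and the Ecm1 window chr3:95739570-95739819, both on the minus strand.
Thbs4: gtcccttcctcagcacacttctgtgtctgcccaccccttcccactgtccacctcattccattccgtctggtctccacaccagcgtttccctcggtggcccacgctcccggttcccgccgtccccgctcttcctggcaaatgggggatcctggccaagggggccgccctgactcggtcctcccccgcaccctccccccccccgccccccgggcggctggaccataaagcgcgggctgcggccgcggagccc
Ecm1: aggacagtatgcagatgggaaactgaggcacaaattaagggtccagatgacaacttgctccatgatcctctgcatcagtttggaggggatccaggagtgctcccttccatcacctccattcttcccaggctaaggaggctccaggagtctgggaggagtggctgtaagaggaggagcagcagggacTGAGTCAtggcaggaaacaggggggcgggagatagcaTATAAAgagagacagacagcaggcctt
Counted from the start, the AP-1 letters of the Ecm1 window begin at −64 and the TATA letters at −27, and the Thbs4 window held none of the 4 motifs. Among 32851 promoter windows of this length, 15.9% held the Meis letters, 2.61% the Pbx-Hox9 letters, 4.46% the AP-1 letters and 12.4% the TATA letters. A match describes these letters only.

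Of the receptors of these proteins, Itgb3 had a higher mean and Plaur, Lrp1 and Itga4 lower means in HoxA9AA/Meis1 marrow, and none passed the test. All 22 listed receptor genes were measured, 9 with a higher and 13 with a lower mean in HoxA9AA/Meis1 marrow and a median difference of −0.09. The smallest adjusted p was 0.731 (limma, over all genes). At an unadjusted p under 0.05 there were 1 higher (Itgb3) and 3 lower (Plaur, Lrp1 and Itga4), or 18.2% against 6.74% of all genes. Cd47, the thrombospondin receptor of nearly all blood cells, was level, at 12.18 to 12.38 in HoxA9wt/Meis1 and 12.27 to 12.31 in HoxA9AA/Meis1 marrow (95% confidence interval of the difference −0.20 to 0.22). Cd36, the scavenger receptor that binds Thbs1, varied between single mice, with 9.85, 5.48 and 7.69 in HoxA9wt replicates 1, 2 and 3 and 4.88, 7.26 and 5.04 in HoxA9AA replicates 1, 2 and 3.

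Itgb3 was the receptor gene with a higher mean and an unadjusted p under 0.05. This integrin beta chain pairs with the alpha V chain Itgav to bind vitronectin, fibronectin, osteopontin and Thbs1. It measured 8.19, 7.55 and 7.35 in HoxA9wt replicates 1, 2 and 3 and 9.33, 8.67 and 9.03 in HoxA9AA replicates 1, 2 and 3, so that the groups did not overlap (difference 1.31 ± 0.26; limma, adjusted p = 0.731). Its partner Itgav measured 9.43 to 10.24 and then 8.62, 9.72 and 9.47, and the platelet partner Itga2b 7.01 to 7.19 and 7.04 to 7.21, both with overlapping groups. The main fibronectin receptor chains Itga5 and Itgb1 differed by 0.27 ± 0.21 and −0.37 ± 0.26 (limma, adjusted p = 0.848 and 0.824).

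Plaur, the urokinase receptor, which also binds vitronectin, measured 8.94, 8.22 and 9.09 in HoxA9wt replicates 1, 2 and 3 and 7.87, 8.20 and 7.93 in HoxA9AA replicates 1, 2 and 3, a separation of 0.02 between the nearest mice. Lrp1, which takes up thrombospondins, measured 9.08 to 9.22 and then 7.58, 9.07 and 7.90, and here too replicate 2 lay 0.01 below the HoxA9wt mice. Itga4, a chain of the fibronectin and Vcam1 receptor, measured 11.31 to 11.86 and then 10.29, 11.38 and 10.90, and its groups overlapped. Cd44, Itga4, Itgav and Itgb6 lie in the same stretch of chromosome 2 as Thbs1, and for 3 of these 4 HoxA9AA replicate 1 was below every HoxA9wt mouse. The part of the stretch in their values was not tested.

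**Figure D5:**
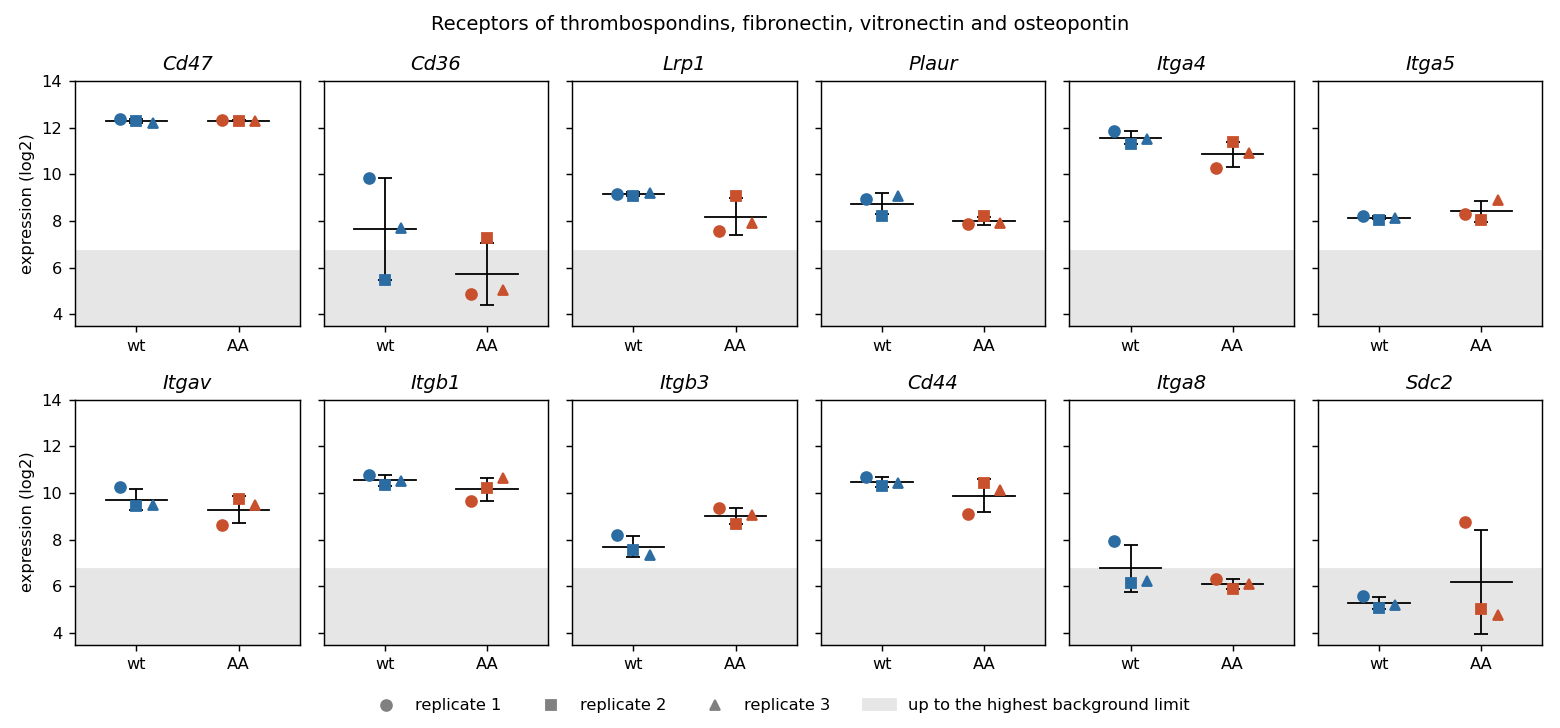
Expression values (log2, vertical axis) of 12 of the 22 receptor genes by array; each symbol is 1 mouse, horizontal lines the group mean and bars the SD (n = 3), and the grey area ends at the highest background limit, 6.72. Itgb3 is higher in all 3 HoxA9AA mice (8.67 to 9.33 against 7.35 to 8.19), Cd47 stays between 12.18 and 12.38, and Sdc2 is high in HoxA9AA replicate 1 alone, at 8.76.

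Tgfbi and Vcan, other matrix genes well above background, were low in the same 2 mice as Fn1. Of 39 measured matricellular and elastic matrix genes (46 listed), 21 were above background on no array, 13 had a higher and 24 a lower mean, and 1, Tgfbi, had an unadjusted p under 0.05, or 2.56% against 6.74% of all genes. Tgfbi, a secreted adhesion protein induced by TGF-beta, measured 10.93 to 11.46 in the HoxA9wt mice and 8.63, 11.12 and 8.53 in HoxA9AA replicates 1, 2 and 3 (limma, adjusted p = 0.731). Emilin2 and Mfap5, of elastic fibres, differed by −0.67 and −0.17. Of 28 measured collagen, laminin and proteoglycan genes (29 listed), 13 had a higher and 15 a lower mean. Of these 1, Vcan, had an unadjusted p under 0.05, or 3.57% against 6.74% of all genes. Vcan, the proteoglycan versican, measured 11.77 to 12.10 and then 8.09, 11.65 and 8.47, a difference of −2.50 ± 0.89 (limma, adjusted p = 0.731). The laminin chain gene Lamc1 differed by −0.54, and Fmod, fibromodulin, by −0.09 below background. For Fn1, Tgfbi and Vcan, HoxA9AA replicate 2 was inside the HoxA9wt range or 0.12 below it (Vcan), and the other HoxA9AA mice lay at least 2.30 below it. Tgfbi and Vcan were named for the smallest p of their lists. HoxA9AA replicate 2 was also the HoxA9AA array closest to the HoxA9wt arrays over all genes (r = 0.989 to 0.991).

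Of 25 measured genes for matrix cross-linking, processing and the plasminogen system (28 listed), 9 had a higher and 16 a lower mean, and 16% had an unadjusted p under 0.05, with 2 in each direction, against 6.74% of all genes. The groups did not overlap for 24% of them, against 11.4% of all genes. Tgfb1, the growth factor whose latent form Thbs1 can activate, measured 8.66 to 8.86 in the HoxA9wt mice and 9.09, 9.01 and 9.50 in HoxA9AA replicates 1, 2 and 3 (difference 0.41 ± 0.15). P4ha1, a collagen prolyl hydroxylase, differed by −0.46 ± 0.16, and the membrane protease gene Adam9 by −0.76 ± 0.28. The groups of these 3 genes did not overlap, and none passed (limma, adjusted p = 0.731 for each).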

How the data were processed

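The deposited values are log2 expression values per probe set of 1-colour arrays; per the submitters' processing notes the authors made them with oligo and RMA (background correction, quantile normalization, summary per probe set), with versions and build not given in the sources used here. Of 35556 probe sets, the platform annotation gave 21789 a single symbol, and the 1621 with several symbols and 12146 not listed were set aside; the brightest per symbol gave 19938 genes. Chromosomes and gene order came from RefSeq (GRCm38.p6) through Entrez identifiers.

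limma 3.58.1 under R 4.3.3 fitted both groups (lmFit, eBayes, two-sided, no block), with p-values adjusted by Benjamini-Hochberg over all genes, with 0.05 as threshold; the fit was tested on simulated data. The genes and lists were chosen with earlier results of these data known. Named were all measured members, per list the 3 genes with the smallest p, for cell types also the 2 brightest, and the 3 genes most like each member that ranged over 1 or more. Cd47, Cd36, Itgav, Itga2b, Itga5, Itgb1, Itga4, Itga8, Cd44, Itgb6, Sdc2, Itga9, Csf1r and Alb were named after their values were seen. So were Flt3, Meis1, Ltf and Cd177. For the stretch on each array, differences were limited to 1.5 in size, a HoxA9wt array was set against the other HoxA9wt arrays, and runs of at least 20 genes were searched. Alternatives were the replicate block, leaving out each mouse, 2 filters on dim genes, other probe set rules, quantile normalization, median centring and other variance models. The number of mice limits the precision.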

Additional observations from a re-analysis of the deposited data

How the results depend on the processing

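None of the 8 genes passed under any of the 16 alternatives that gave it a value, and 0 of all genes passed except without HoxA9wt replicate 3 (1 gene) or HoxA9AA replicate 2 (48 genes; leaving out single mice gave 0 to 48). Genes with separate groups numbered 2 to 4 of the 8 without a single mouse: Thbs1 and Thbs4 each time, joined by Thbs2 and Fn1 without HoxA9wt replicate 1, by Thbs3 and Ecm1 without HoxA9AA replicate 1, and by Fn1 and Vtn without HoxA9AA replicate 2. Leaving out a mouse cannot make separate groups overlap, so this count could not fall and Thbs1 and Thbs4 had to stay. The share over all genes was not counted for these smaller groups. With median centring Thbs3 joined Thbs1 and Thbs4. The count has no value of its own under the block and the variance models. Signs held for every gene except Comp, which turned to −0.055 without HoxA9AA replicate 1 (−0.055 to 0.20 without single mice) and to −0.0051 with array weights. The cause of that turn was not tested. The block, the filters, the probe set rules and the variance models other than array weights left each difference they gave at its main value. A sign could not change there. Across alternatives Thbs1 ranged from −1.88 to −1.31 (adjusted p 0.113 to 0.998) and Fn1 from −4.16 to −1.67 (0.0743 to 0.998). Thbs2 and Vtn have no value under either filter on dim genes, and Thbs3 and Comp none under the filter at the median. With the replicate number as a block Thbs1 was −1.61 ± 0.23 and 0 genes passed. The deviations of same-numbered mice from their group means correlated at r = −0.21, −0.10 and −0.01 over genes. Mice with different numbers gave −0.16 to 0.24. Deviations within a group of 3 mice depend on each other, so these values cannot decide whether same-numbered mice share more than a number. The labels give no batch or pairing. Values near or below background limit Thbs2, Thbs3, Comp and Vtn, and Thbs4 outside HoxA9AA replicate 1. They also limit Thbs1 in the HoxA9AA mice, where it stood 0.30 to 0.72 above the background limits.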

Other observations

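Some receptor genes of these matrix proteins stood at least 1.5 above all other arrays in 1 mouse, as Thbs4 and Ecm1 did. Sdc2, a heparan sulfate proteoglycan of the cell surface, measured 8.76 in HoxA9AA replicate 1 and 4.77 to 5.56 in the other 5 mice, a gap of 3.20 to the next array. Itga9, an integrin chain that binds osteopontin and tenascin, measured 8.07 in HoxA9AA replicate 3 and 6.27 to 6.44 in the others, a gap of 1.63. Cd36 and Itga8 were highest in HoxA9wt replicate 1, as Ecm1 was, with gaps of 2.16 and 1.61. Over all 19938 genes a gap of at least 1.5 above the other 5 arrays was seen for 14 genes in HoxA9wt replicate 1, 49 in HoxA9AA replicate 1 and 20 in HoxA9AA replicate 3. It was seen for 4 genes each in HoxA9wt replicate 2 and HoxA9AA replicate 2 and for 8 in HoxA9wt replicate 3.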
